A study of Homo sapiens with 24 samples.

Results

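The genes described here are 10 transcripts of the unfolded protein response and of the ATF4 branch of the integrated stress response, chosen by gene name: HSPA5, HERPUD1, DNAJB9, XBP1, ATF4, DDIT3, TRIB3, CHAC1, ASNS and SESN2. All 10 were found among the 58884 genes listed, and all 10 passed the filter on low values. They were followed in RNA-seq of HEK293T cells, a human embryonic kidney line, with wild-type SETD2 (WT), with SETD2 deleted (KO), and in KO cells given full-length SETD2 (SETD2 FL) or its C-terminal segment from residue 1404 to 2564 (SETD2 C, called N3 in the sample names). SETD2 is the enzyme that trimethylates lysine 36 of histone H3. A first table held 2 WT and 2 KO libraries, all labelled untreated, and a second table held KO, SETD2 FL and SETD2 C with 2 libraries per group. Both constructs were expressed from a CMV promoter by transient transfection, and RNA was taken 72 h later, whereas the KO libraries were labelled untreated, so transfection and construct cannot be told apart in comparisons with KO. SETD2 C and SETD2 FL were both transfected. No label ties the replicates of a group to separate cultures, so p-values measure only the spread between these libraries, which may be technical.

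The unfolded protein response is set off when unfolded proteins build up in the endoplasmic reticulum (ER). Its sensors are IRE1, which splices XBP1 mRNA into the form that encodes an active transcription factor, ATF6, which is cut to release one, and PERK, a kinase of the translation factor eIF2alpha. Phosphorylated eIF2alpha slows general translation and favours translation of ATF4, and other kinases feed the same step on amino acid shortage, double-stranded RNA or mitochondrial stress. HSPA5 (BiP) is the main ER chaperone, DNAJB9 (ERdj4) its co-chaperone and HERPUD1 a component of ER-associated degradation. DDIT3 (CHOP), TRIB3, CHAC1, ASNS and SESN2 are known targets of ATF4. The values here are transcripts per gene, so neither splicing of XBP1 nor translation of ATF4 was measured.

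The promoters of some of these genes carry the sequences through which the pathway's factors are known to act, and those found are shown so that the genes that hold them can be set beside their values. In RefSeq promoters on GRCh38.p14, taken from 250 bases before to 50 bases after each start, all 10 genes had an entry, with 16 promoters in all among 35116. Both strands were searched for the ER stress response element (ERSE, which is CCAAT, any 9 bases and CCACG), ERSE-II (ATTGG, any base and CCACG), the core of the unfolded protein response element (TGACGTGG) and the core bound by ATF4 dimers (TGATGNAA, the CARE core). ERSE was found in 0.0769% of all promoters, ERSE-II in 0.0541%, the unfolded protein response element core in 0.729% and the CARE core in 3.62%. Of the 16 promoters, 2 held ERSE, 1 held ERSE-II, 3 held the CARE core and 0 held the unfolded protein response element core. In the sequences that follow, written 5′ to 3′ on the gene's strand, capitals mark the matched letters.
HSPA5, ERSE, chr9:125241386-125241414, minus strand: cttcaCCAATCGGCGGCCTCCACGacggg
XBP1, ERSE, chr22:28800598-28800626, minus strand: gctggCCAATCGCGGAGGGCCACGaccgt
HERPUD1, ERSE-II, chr16:56932016-56932044, plus strand: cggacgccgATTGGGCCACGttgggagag
HERPUD1, CARE core on the opposite strand, chr16:56931955-56931984, plus strand: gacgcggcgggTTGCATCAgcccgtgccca
ASNS, CARE core, chr7:97872458-97872487, minus strand: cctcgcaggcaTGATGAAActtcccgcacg
CHAC1, CARE core on the opposite strand, chr15:40953251-40953280, plus strand: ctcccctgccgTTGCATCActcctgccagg

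The match in HSPA5 spanned positions -66 to -48 from the start, and that in XBP1 spanned -52 to -34. The ERSE-II match of HERPUD1 lay at -117 to -107 and the CARE core of ASNS at -68 to -61. A match is a description of the letters and not a measured binding site.

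On GRCh38 the genes annotated by GENCODE 44 lie at chr9:125234853-125241382 (HSPA5, ENSG00000044574), chr16:56932142-56944864 (HERPUD1, ENSG00000051108), chr7:108569867-108574850 (DNAJB9, ENSG00000128590), chr22:28794555-28800597 (XBP1, ENSG00000100219), chr22:39519695-39522683 (ATF4, ENSG00000128272), chr12:57516588-57521737 (DDIT3, ENSG00000175197), chr20:362835-397559 (TRIB3, ENSG00000101255), chr15:40952962-40956512 (CHAC1, ENSG00000128965), chr7:97851677-97872542 (ASNS, ENSG00000070669) and chr1:28259518-28282491 (SESN2, ENSG00000130766). All 10 are protein-coding, with 3 exons in the reference transcripts of DNAJB9, ATF4 and CHAC1 and up to 13 in that of ASNS. DDIT3 overlaps MARS1 on the opposite strand, and their reference transcripts share 60 exonic bases. Whether counting used strand is not given in the sources used here, so reads from these exons cannot be told apart. MARS1 TPM was 154 and 145 in KO and 120 and 113 with SETD2 C, and its part in the DDIT3 values was not tested. AC022506.1, a protein-coding gene on the same strand, also overlaps DDIT3. In the first table it had 0 and 5.88 TPM in WT and 9.40 and 0 in KO, and in the second it had 0 throughout. How reads were split between AC022506.1 and DDIT3 was not tested. Among processed copies, ASNSP1 reached at most 4.61 TPM and ATF4P3 at most 2.81, beside 111 to 190 for ASNS and 531 to 974 for ATF4.

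The deposited values are TPM, a transcript level per length and as a share of all transcripts in a library, so the depth of the libraries is unknown. SETD2 stood at 12.6 and 14.8 TPM under the label WT and at 16.2 and 16.3 under the label KO, so the transcript does not check these labels, on which every direction between WT and KO depends. The second table had SETD2 at 12.0 and 12.2 TPM in KO, at 439 and 422 in the SETD2 FL libraries and at 1329 and 1264 in the SETD2 C libraries. Mitochondrially encoded genes took 6.23% and 7.04% of TPM in KO, between 7.79% and 11.0% in SETD2 FL libraries and 2.93% and 3.37% in SETD2 C libraries, and 23.2% in WT replicate 1 against 12.0% to 14.1% in the other 3 libraries of the first table. All 6 markers of HEK293 cells were detected. Of 6 markers of other cell types, PTPRC, CD3E, ALB and PECAM1 stayed at or below 0.38 TPM in every library, CD68 ranged from 0.74 to 4.76 and COL1A1 from 6.43 to 12.1.

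ATF4 was the most abundant of the 10 transcripts in every group, and HSPA5, ASNS, XBP1 and HERPUD1 followed in this order in every group. In the second table's KO libraries mean TPM was 667 ± 27.6 for ATF4 (SD, n = 2), 219 ± 24.5 for HSPA5, 171 ± 4.98 for ASNS, 117 ± 5.80 for XBP1 and 63.2 ± 2.88 for HERPUD1. The order then ran through SESN2 (24.9 ± 3.29), DDIT3 (19.4 ± 2.31), TRIB3 (10.4 ± 0.354), DNAJB9 (9.80 ± 1.65) and CHAC1 (4.46 ± 1.08), and among neighbours in this order only TRIB3 and DNAJB9 overlapped. With SETD2 C the order changed at DDIT3, which at 54.5 ± 2.21 TPM stood above SESN2 at 19.8 ± 2.01, while SESN2 stood above DDIT3 in every other group. The KO libraries of the 2 tables also differed in level, with CHAC1 at 7.19 and 10.4 TPM in the first and 3.69 and 5.22 in the second. Because the tables were made separately, this difference was not tested. Since the RNA came from whole cultures, fewer cells expressing a gene and less RNA per cell cannot be told apart.

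**Figure D1:**
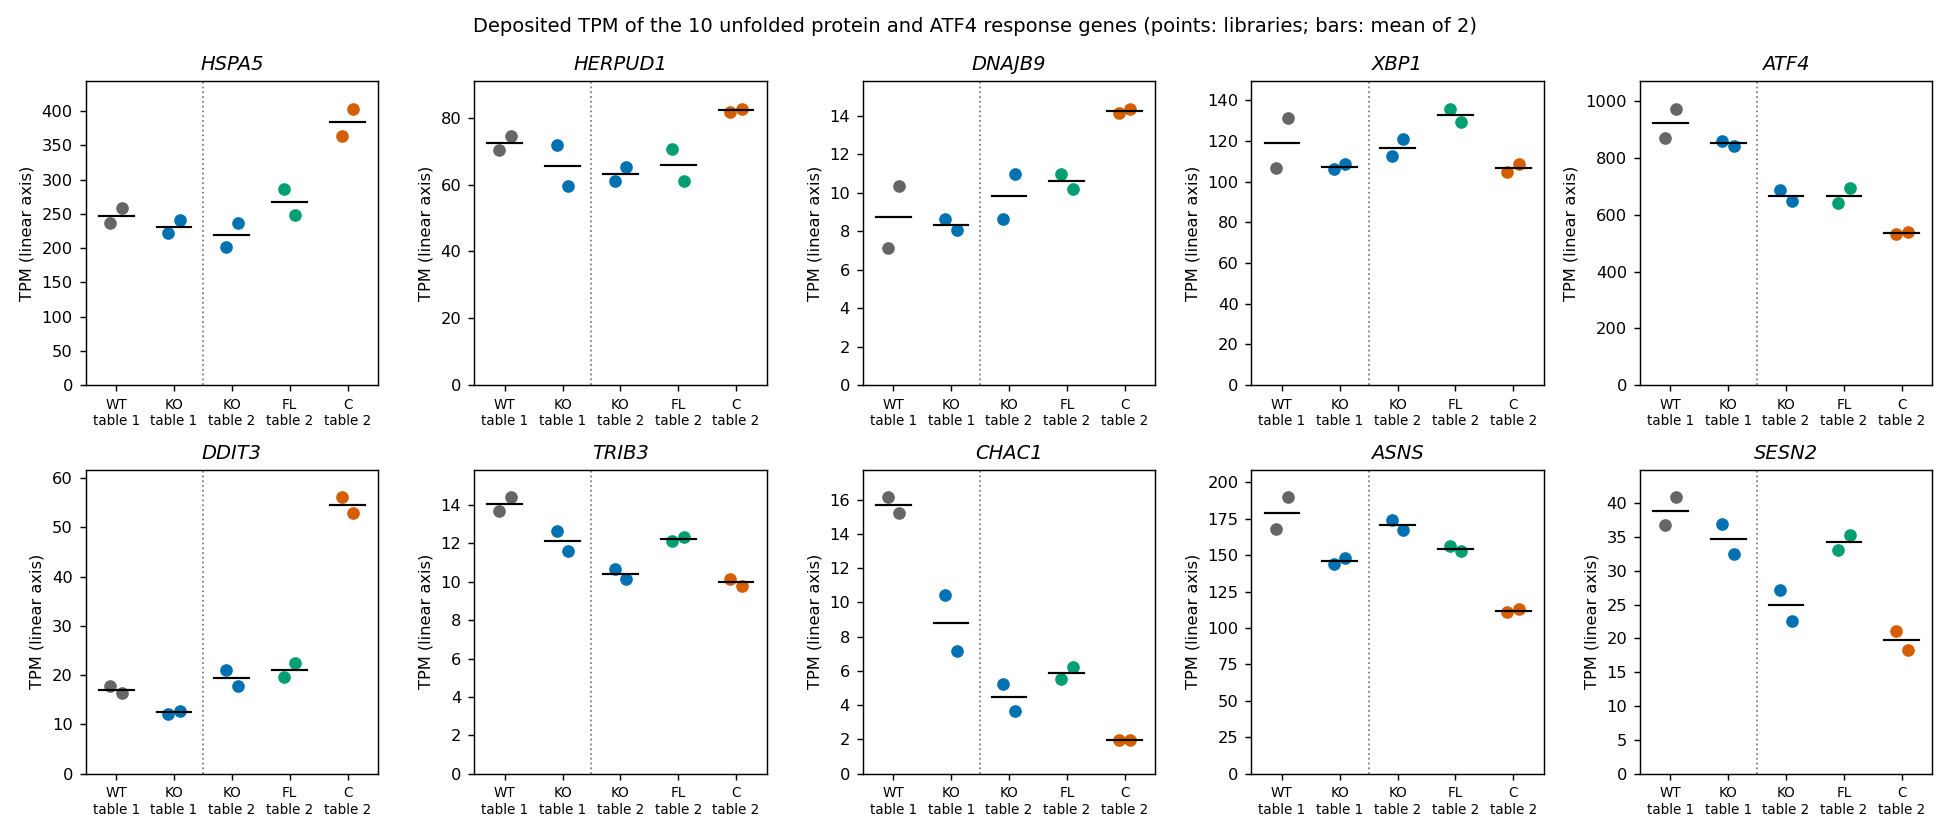
Deposited TPM of each of the 10 genes (linear axis from 0) in the 2 libraries of every group, WT and KO of the first table left of the dotted line and KO, SETD2 FL (FL) and SETD2 C (C) of the second table right of it, with points for libraries and bars for means. DDIT3 stood at 52.9 and 56.1 TPM with SETD2 C against 17.7 to 22.5 in the other libraries of the second table, and CHAC1 at 1.95 in both SETD2 C libraries against 3.69 to 6.24.

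SETD2 C was first compared with KO, to ask how the branches stood when the C-terminal segment was expressed. The genes did not move as one group: DDIT3 and the ER chaperones HSPA5 and DNAJB9 rose, whereas ATF4, ASNS, CHAC1, SESN2 and XBP1 fell, and TRIB3 and HERPUD1 did not pass the test. In this comparison 3 of the 10 genes were higher and 5 lower by limma (Benjamini-Hochberg adjusted p no higher than 0.05 over 15929 genes), beside 36.2% of all genes called, 21.1% higher and 15.1% lower. Of these, 1 rose and 1 fell by 2-fold or more, beside 4.06% of all genes in either direction, 3.75% upward and 0.314% downward. After scaling, the KO and SETD2 C libraries did not overlap for any of the 10, and neither did they for 71.3% of all genes. The median log2 fold change was -0.24 over the 10 and 0.05 over all genes tested. Without scaling between libraries, which put the median of all genes at 0.18, the split was 4 higher and 4 lower.

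Among the ER genes, HSPA5 TPM was 202 and 236 in KO and 364 and 404 with SETD2 C. Both SETD2 C libraries lay above both KO libraries, and HSPA5 was 1.58-fold higher on the log2(scaled TPM + 0.5) scale used for every fold change here (95% interval 1.33 to 1.88, adjusted p = 0.00308 from limma). DNAJB9, which binds unfolded proteins and the sensor IRE1, had 8.63 and 11.0 TPM in KO and 14.2 and 14.4 with SETD2 C. Its log2 fold change was 0.39 (standard error 0.12, limma adjusted p = 0.0367). HERPUD1 TPM was 61.2 and 65.2 in KO and 81.7 and 82.7 with SETD2 C, without overlap, but its log2 fold change of 0.23 missed the threshold (limma adjusted p = 0.0710). HERPUD1 passed in 4 of 14 alternatives, without scaling (0.00434), with quantile normalization (0.0338), after rescaling without mitochondrially encoded genes and SETD2 (0.0170) and in a fit of only the 4 libraries compared (0.0253). XBP1 went the other way, from 112 and 121 TPM in KO to 105 and 109 with SETD2 C, a log2 fold change of -0.27 (limma adjusted p = 0.0138). HSPA5 and XBP1, the genes whose promoters held ERSE, thus had fold changes of opposite sign.

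In the ATF4 branch, ATF4 TPM was 687 and 648 in KO and 531 and 540 with SETD2 C, and the groups stood apart. The transcript was 1.38-fold lower (log2 fold change of -0.46, standard error 0.05, limma adjusted p = 0.000677). DDIT3, the pro-apoptotic transcription factor CHOP, had 21.0 and 17.7 TPM in KO and 56.1 and 52.9 with SETD2 C. It was 2.51-fold higher with SETD2 C, the largest rise among the 10 (log2 fold change of 1.33, standard error 0.09, limma adjusted p = 8.14e-05). CHAC1, a glutathione-degrading enzyme, had 5.22 and 3.69 TPM in KO and 1.95 in both SETD2 C libraries. It was 2.18-fold lower, the largest fall (log2 fold change of -1.12, standard error 0.15, limma adjusted p = 0.00147).

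ASNS, which makes asparagine from aspartate and glutamine, fell from 174 and 167 TPM in KO to 111 and 113 with SETD2 C, 1.68-fold (log2 fold change of -0.75, standard error 0.05, limma adjusted p = 8.92e-05). SESN2, a sensor of leucine that restrains mTORC1, had 27.2 and 22.6 TPM in KO and 21.2 and 18.3 with SETD2 C, and its log2 fold change was -0.47 (limma adjusted p = 0.00999). TRIB3, a pseudokinase that binds ATF4 and DDIT3, had 10.7 and 10.2 TPM in KO and 10.2 and 9.80 with SETD2 C, so the deposited values met at 10.16. Its log2 fold change of -0.20 missed the threshold (limma adjusted p = 0.0712), and it passed in 1 of 14 alternatives, quantile normalization (0.0335). DNAJB9 lost its call in 7 of 14 alternatives, among them without KO replicate 2 (limma adjusted p = 0.178), without SETD2 C replicate 1 (0.105) or replicate 2 (0.126), and XBP1 lost it in 5, among them without KO replicate 4 (0.0793), without SETD2 C replicate 1 (0.0686) or without scaling (0.141). SESN2 lost it without SETD2 C replicate 2 (0.0627), whereas HSPA5, ATF4, DDIT3, CHAC1 and ASNS kept direction and call in 14 of 14 alternatives.

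**Figure D2:**
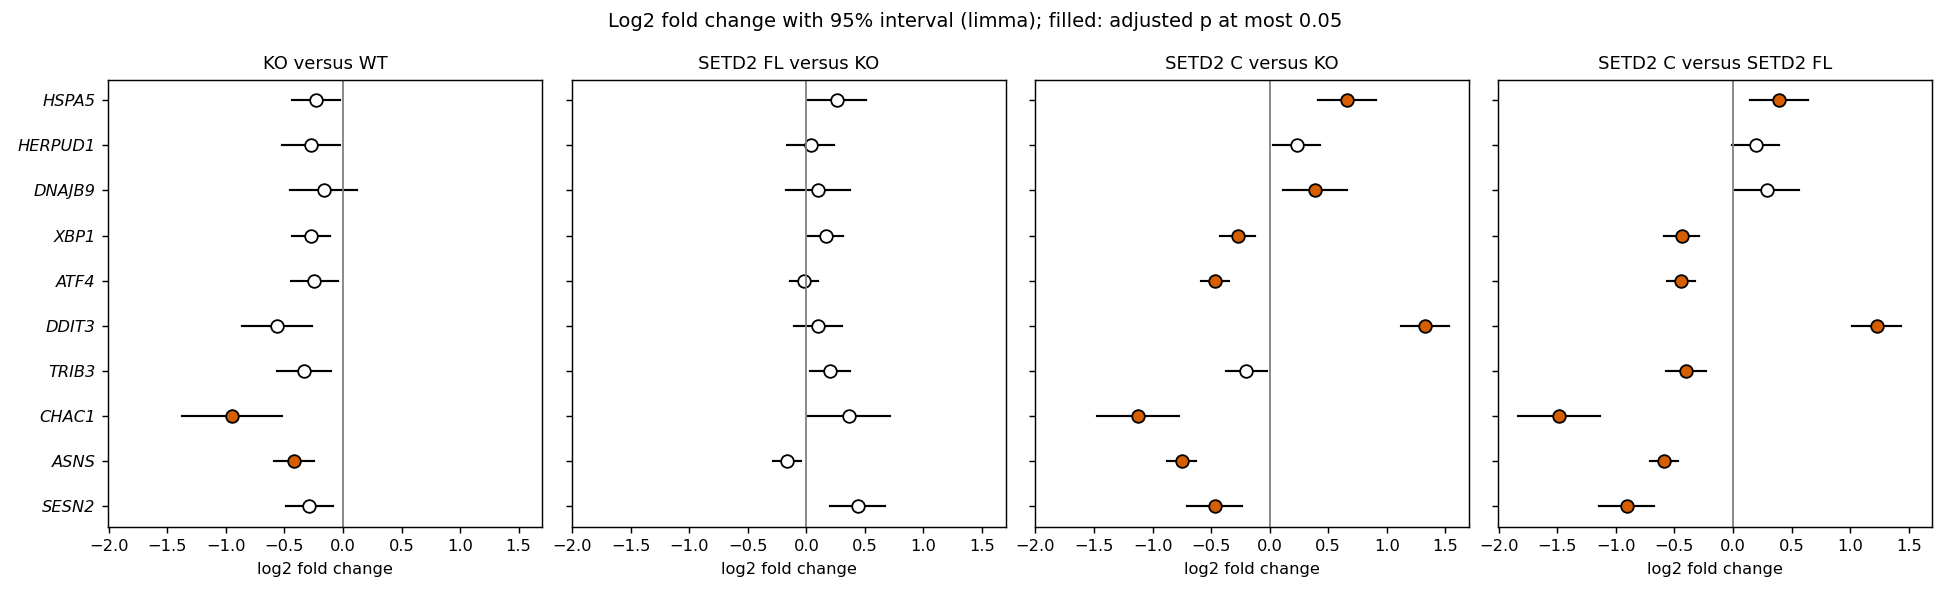
Log2 fold change (x axis) of each of the 10 genes in the 4 comparisons, with 95% intervals from limma as lines and filled circles at an adjusted p of at most 0.05. With SETD2 C, DDIT3 stood at 1.33 against KO and 1.23 against SETD2 FL while CHAC1 stood at -1.12 and -1.49, and no circle was filled for SETD2 FL against KO.

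Next, SETD2 C was compared with SETD2 FL, where both groups had been transfected. SETD2 itself was 2.75-fold higher in the SETD2 C libraries (limma adjusted p = 7.09e-06). The paper, by contrast, reports no significant difference between the constructs in transcript level. TPM is a level per length and SETD2 C is the shorter construct, so SETD2 TPM may not be comparable between these groups, which was not tested. The construct and its level cannot be told apart here. DDIT3 and HSPA5 were again higher, and XBP1, ATF4, TRIB3, CHAC1, ASNS and SESN2 were lower with SETD2 C. This comparison uses the same SETD2 C libraries as the one with KO and is no separate evidence about them. Of the 10 genes, 2 were higher and 6 lower (limma), beside 38.2% of all 15929 genes called, 21.4% higher and 16.8% lower, and without scaling 4 were higher and 6 lower. By 2-fold or more, 1 rose and 1 fell, beside 3.79% of all genes, 3.36% upward and 0.421% downward. After scaling none of the 10 overlapped between the groups, and 72.3% of all genes did not either. The median log2 fold change was -0.42 over the 10 and 0.04 over all genes.

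DDIT3 TPM was 56.1 and 52.9 with SETD2 C and 19.7 and 22.5 in SETD2 FL libraries, 2.34-fold higher (log2 fold change of 1.23, standard error 0.09, limma adjusted p = 0.000102). CHAC1 TPM was 5.53 and 6.24 with SETD2 FL against 1.95 and 1.95, and it was 2.80-fold lower with SETD2 C (log2 fold change of -1.49, standard error 0.15, limma adjusted p = 0.000453). SESN2 TPM was 33.1 and 35.3 with SETD2 FL against 21.2 and 18.3, and it was 1.87-fold lower (limma adjusted p = 0.000623). For these 3 genes no library of one group reached the range of the other.

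TRIB3 TPM was 12.1 and 12.3 in SETD2 FL libraries and 10.2 and 9.80 in SETD2 C libraries, a log2 fold change of -0.40 (limma adjusted p = 0.00487). XBP1 TPM was 136 and 129 against 105 and 109, a log2 fold change of -0.44 (limma adjusted p = 0.00178). For both, the SETD2 C libraries were the lower pair. ATF4 TPM was 640 and 694 against 531 and 540 (log2 fold change of -0.44, limma adjusted p = 0.000682). ASNS TPM was 156 and 153 against 111 and 113 (log2 fold change of -0.59, limma adjusted p = 0.000253).

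HSPA5 TPM was 286 and 248 in SETD2 FL libraries and 364 and 404 in SETD2 C libraries, again without overlap. Its log2 fold change was 0.40 (standard error 0.11, limma adjusted p = 0.0221), and the call was lost in 4 of 14 alternatives, among them without SETD2 FL replicate 4 (0.115) or SETD2 C replicate 2 (0.120). HERPUD1 (log2 fold change of 0.19, limma adjusted p = 0.111) and DNAJB9 (0.29, limma adjusted p = 0.0875) did not pass the test. HERPUD1 passed in 3 of 14 alternatives (without SETD2 FL replicate 3, without scaling and with quantile normalization) and DNAJB9 in 2 (without scaling and in a fit of only the 4 libraries compared).

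SETD2 FL was compared with KO to ask whether the full-length protein moved the same genes. None of the 10 was called (limma, adjusted p from 0.143 to 0.878), beside 0.207% of all genes, 0.176% higher and 0.0314% lower, and 6 of the 10 had an unadjusted p under 0.05. The groups did not overlap for 6 of the 10 genes and for 48.2% of all genes. The median log2 fold change was 0.13 over the 10 and 0.01 over all genes. SESN2, at 27.2 and 22.6 TPM in KO and 33.1 and 35.3 with SETD2 FL, had the largest log2 fold change (0.44, 95% interval 0.20 to 0.67, limma adjusted p = 0.143). CHAC1, at 5.22 and 3.69 TPM in KO and 5.53 and 6.24 with SETD2 FL, had a log2 fold change of 0.36 (95% interval 0.01 to 0.71). For DDIT3 the log2 fold change was 0.10 (95% interval -0.11 to 0.31) and for ATF4 it was -0.02 (95% interval -0.14 to 0.10), and the SETD2 FL libraries overlapped the KO libraries for both. A missed threshold does not show that the levels were alike.

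In the first table, KO was compared with WT to ask how the genes stood in cells labelled KO without any transfection. Loss of SETD2 and any other difference between the WT and KO cells cannot be told apart here. The log2 fold change was below 0 for all 10 (median -0.28, beside -0.01 over all genes), and 2 of the 10, CHAC1 and ASNS, passed the test as lower in KO. Over all 14741 genes 4.48% were called, 1.32% higher and 3.17% lower. None of the 10 was called with a 2-fold fall, beside 1.36% of all genes called with a change of that size, 0.339% upward and 1.02% downward. After scaling the groups did not overlap for 9 of the 10 genes, and for 56.9% of all genes. Without scaling, which put the median of all genes at 0.11, they did not overlap for 5 of the 10 and the median of the 10 was -0.15. Some cell markers were called in this comparison as well, beside the 4.48% of all genes. Of the 6 HEK293 markers, NEFL and LIN28B were higher and INA lower in KO. LIN28B kept its call in 5 of 14 alternatives, NEFL in 9 and INA in 10, and without scaling 3 markers were higher and 0 lower. CD68, a macrophage marker, was higher (0.99 and 1.01 TPM in WT, 4.76 and 3.97 in KO, log2 fold change of 1.59, limma adjusted p = 0.00358). With SETD2 C against KO, 3 of the 6 HEK293 markers, CD68 and COL1A1 were higher, beside 36.2% of all genes called and 21.1% higher. The part of these markers in either comparison was not tested. The 6 markers of other cell types summed to 7.55 and 8.23 TPM in WT and 15.2 and 14.6 in KO, and in the second table to 7.84 and 8.71 in KO and 16.0 and 15.3 with SETD2 C.

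CHAC1 TPM was 16.1 and 15.2 in WT and 10.4 and 7.19 in KO, and the groups stood apart (log2 fold change of -0.95, standard error 0.18, limma adjusted p = 0.0397). ASNS TPM was 168 and 190 in WT and 144 and 148 in KO, also apart (log2 fold change of -0.42, standard error 0.07, limma adjusted p = 0.0300). DDIT3 TPM was 17.7 and 16.5 in WT and 12.2 and 12.8 in KO, and its log2 fold change of -0.56 missed the threshold (limma adjusted p = 0.0569). DDIT3 thus had the second most negative log2 fold change in KO and the largest rise with SETD2 C. The part of the overlapping AC022506.1, detected in 1 WT and 1 KO library of the first table, was not tested.

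XBP1 (-0.27, limma adjusted p = 0.0768), TRIB3 (-0.33, 0.101), SESN2 (-0.29, 0.103), ATF4 (-0.24, 0.141), HSPA5 (-0.23, 0.163), HERPUD1 (-0.28, 0.163) and DNAJB9 (-0.16, 0.428) did not pass. The CHAC1 call was lost in 5 of 14 alternatives, among them without WT replicate 1 (limma adjusted p = 0.0919), the library with the high mitochondrial share, and without KO replicate 2 (0.125). The ASNS call was lost in 6, among them without WT replicate 1 (0.0717), KO replicate 1 (0.159) or KO replicate 2 (0.168), and without scaling (0.276), while DDIT3 passed in 4 of 14 alternatives: without WT replicate 2 (0.0143), with TPM of at least 1 in every library (0.0462), after rescaling without mitochondrially encoded genes and SETD2 (0.0385) and with a replicate block (0.0415).

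Ratios of TPM within a library do not depend on the scaling between libraries. The ratio of DDIT3 to ATF4 was 0.0306 and 0.0274 in KO, 0.0307 and 0.0323 in SETD2 FL libraries and 0.106 and 0.0981 with SETD2 C. The ratio of DDIT3 to CHAC1 was 4.02 and 4.81 in KO, 3.55 and 3.60 in SETD2 FL libraries and 28.7 and 27.1 with SETD2 C. The ratio of HSPA5, the chaperone, to ASNS, the synthetase, was 1.16 and 1.41 in KO, 1.83 and 1.62 in SETD2 FL libraries and 3.27 and 3.58 with SETD2 C. Each ratio sets a gene called higher with SETD2 C over one called lower in the same libraries, so the high ratios with SETD2 C restate those calls and are no further result. In the first table the ratio of DDIT3 to ATF4 was 0.0203 and 0.0169 in WT and 0.0141 and 0.0152 in KO. With 2 libraries against 2 an exact permutation test cannot go below a two-sided p of 0.333, so none was run on single ratios.

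**Figure D3:**
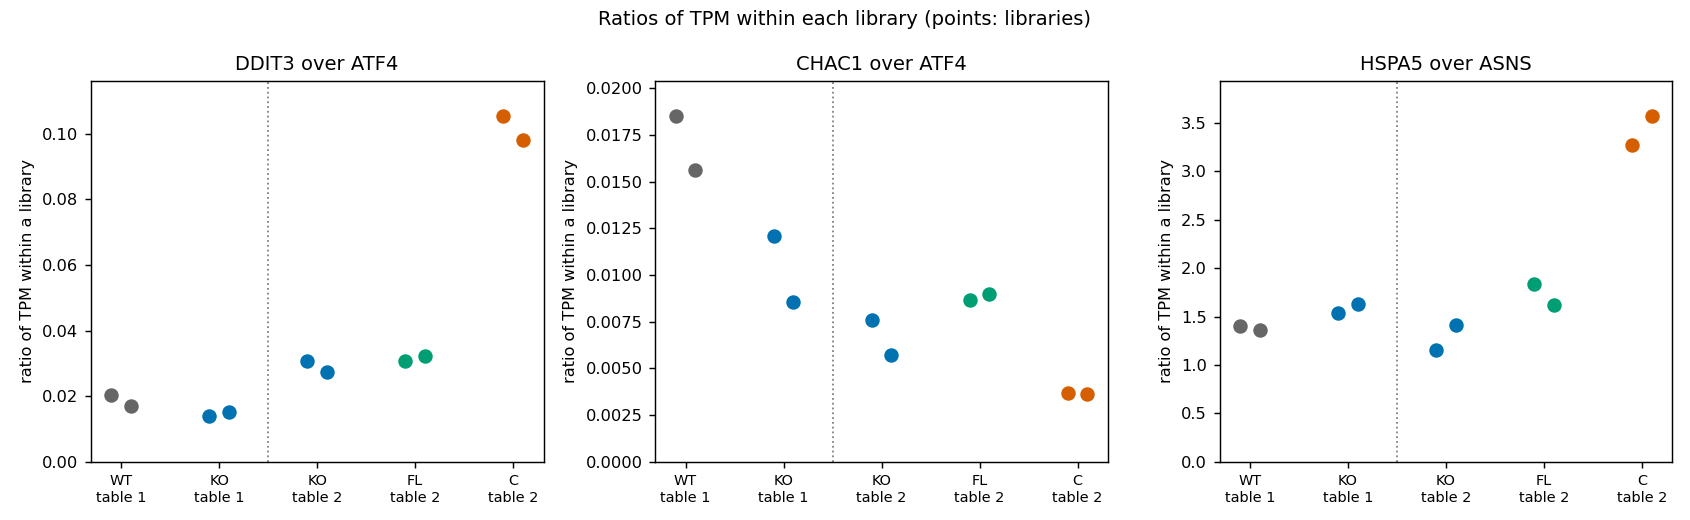
Ratios of TPM within each library (linear axes from 0) for DDIT3 to ATF4, CHAC1 to ATF4 and HSPA5 to ASNS, with 1 point per library and the first table left of the dotted line. With SETD2 C, DDIT3 to ATF4 was 0.106 and 0.0981 against 0.0274 to 0.0323 in the other libraries of the second table, while CHAC1 to ATF4 was 0.00367 and 0.00361 against 0.00570 to 0.00899.

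The other genes of the pathways were then described from lists written by hand, each by its count and median, to be read beside the 36.2% of all genes called in SETD2 C against KO (21.1% higher and 15.1% lower, with a median log2 fold change of 0.05). These lists were chosen with earlier results of these data known, so their counts are a description and no independent test. Among ATF4 targets for amino acid synthesis and one-carbon metabolism, 0 of 14 tested were higher and 12 lower with SETD2 C than in KO, ASNS among them, with a median log2 fold change of -0.40. PHGDH, the first enzyme of serine synthesis, had 499 and 492 TPM in KO and 316 and 323 with SETD2 C (log2 fold change of -0.78, limma adjusted p = 4.04e-05). PCK2, the mitochondrial phosphoenolpyruvate carboxykinase, had 48.5 in both KO libraries and 30.3 and 28.8 with SETD2 C (-0.85), and PYCR1, an enzyme of proline synthesis, had a log2 fold change of -0.71. Of 10 amino acid transporters, 0 were higher and 8 lower, with a median of -0.52. SLC6A9, a glycine transporter, had 6.83 and 6.34 TPM in KO and 2.05 and 2.34 with SETD2 C (-1.52, limma adjusted p = 0.000118). SLC7A11, the cystine transporter, had a log2 fold change of -0.92 and SLC1A5, a glutamine transporter, one of -0.70. Against SETD2 FL, 12 of the 14 synthesis genes and 9 of the 10 transporters were lower and 0 higher, with medians of -0.44 and -0.74, beside 16.8% of all genes lower.

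The stress effectors downstream of ATF4 and DDIT3 went both ways with SETD2 C. Of 13 tested, 6 were higher and 3 lower than in KO, with a median log2 fold change of 0.29, and 10 were higher and 3 lower without scaling. CHAC1 and SESN2 were among the 3 that fell, and FGF21 was too low to be tested. DDIT4, an inhibitor of mTORC1, had 113 and 123 TPM in KO and 378 and 398 with SETD2 C (log2 fold change of 1.57, limma adjusted p = 6.92e-06). STC2, a secreted glycoprotein, had 46.3 and 49.2 TPM in KO and 123 and 125 with SETD2 C (1.22). GDF15, a secreted stress cytokine, had 2.77 and 2.88 TPM in KO, 12.3 and 12.1 in SETD2 FL libraries and 9.16 and 9.70 with SETD2 C. It was called in both comparisons with KO (log2 fold change of 1.92 with SETD2 FL, limma adjusted p = 0.000176, and 1.44 with SETD2 C), so both groups of transfected libraries stood above the untreated ones.

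Among ATF4 and its partner transcription factors, 3 of 9 were higher and 1, ATF4 itself, lower with SETD2 C than in KO, and 3 were higher and 5 lower with quantile normalization. ATF3 had 97.0 and 114 TPM in KO, 103 and 106 in SETD2 FL libraries and 298 and 357 with SETD2 C, a log2 fold change of 1.48 against KO (limma adjusted p = 7.57e-05). ATF5 had a log2 fold change of 0.62. The third was DDIT3. In the list of eIF2alpha kinases, eIF2B subunits, phosphatase subunits and the mitochondrial relay, 2 of 14 were higher and 4 lower, a share near the 36.2% called over all genes, and 4 higher and 1 lower without scaling. PPP1R15A (GADD34), a DDIT3 and ATF4 target that directs the dephosphorylation of eIF2alpha, had 28.6 and 27.4 TPM in KO, 30.4 and 32.8 in SETD2 FL libraries and 70.0 and 74.8 with SETD2 C (log2 fold change of 1.21 against KO, limma adjusted p = 1.58e-05). OMA1, the protease of the mitochondrial relay, had a log2 fold change of -0.38.

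Of the ER lists, 4 of 17 chaperones and folding enzymes were higher and 3 lower with SETD2 C than in KO, a share near the 36.2% called over all genes, whereas unscaled values gave 7 higher and 0 lower. Their median log2 fold change was 0.01 with scaling. HSPA5 and DNAJB9 were among the 4, and ERO1A, an ER oxidase, had 41.7 and 39.9 TPM in KO and 71.7 and 79.2 with SETD2 C (log2 fold change of 0.73, limma adjusted p = 0.000875). HYOU1, an ER chaperone, had 58.1 and 62.9 TPM in KO and 50.4 and 53.5 with SETD2 C (-0.36), a call that was lost in 5 of 14 alternatives. Of 14 genes of ER-associated degradation, 0 were higher and 4 lower, and 2 higher and 2 lower without scaling. Over all genes 21.1% were higher and 15.1% lower. EDEM3, which trims mannose from misfolded glycoproteins, had a log2 fold change of -0.59. Of 11 sensors and transcription factors of the unfolded protein response, 0 were higher and 3 lower, XBP1 among them, and 1 higher and 1 lower without scaling. RTCB, the ligase that joins XBP1 exons after IRE1 has cut them, had a log2 fold change of -0.39. Against SETD2 FL, 2 of the 17 chaperones and folding enzymes were higher and 7 lower, and 5 higher and 4 lower without scaling. Of the genes of ER-associated degradation 0 were higher and 7 lower (1 and 5 without scaling). Of the sensors and transcription factors 0 were higher and 5 lower (1 and 4 without scaling). Over all genes 21.4% were higher and 16.8% lower in that comparison.

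**Figure D4:**
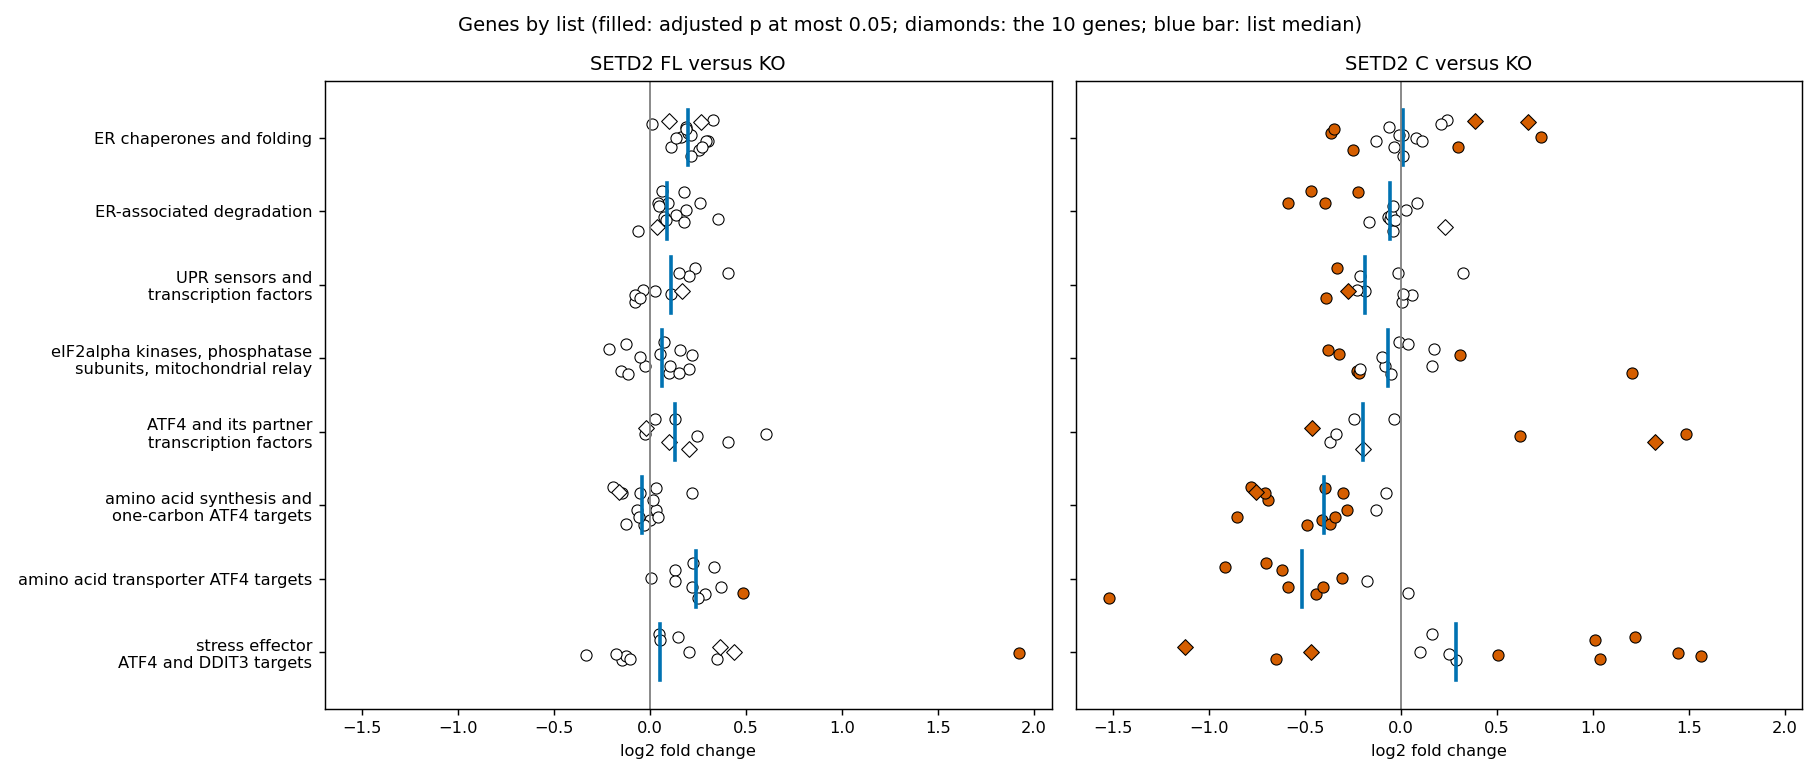
Log2 fold change (x axis) of the genes of 8 pathway lists (rows) for SETD2 FL against KO and SETD2 C against KO, with 1 symbol per gene, filled at an adjusted p of at most 0.05 (limma), diamonds for the 10 genes described and a bar at the median of each list. With SETD2 C the medians of the amino acid synthesis and transporter lists stood at -0.40 and -0.52 and that of the stress effectors at 0.29.

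In SETD2 FL against KO the same 8 lists held 2 called genes, beside 0.207% of all genes, GDF15 and the transporter subunit SLC3A2 (log2 fold change of 0.49, limma adjusted p = 0.0436). The SLC3A2 call was lost in 8 of 14 alternatives. In KO against WT, 4 of the 14 synthesis genes, 1 of the 10 transporters, 4 of the 13 stress effectors, 2 of the 9 partner transcription factors and 1 of the 14 genes of the eIF2alpha list were lower in KO, and 0 genes of the 8 lists were higher, beside 3.17% of all genes lower and 1.32% higher. Over the alternatives the number lower ranged from 0 to 6 for synthesis, 0 to 2 for transporters, 1 to 5 for stress effectors and 0 to 4 for partner factors. DDIT4 had 128 and 165 TPM in WT and 90.1 in both KO libraries (log2 fold change of -0.82, limma adjusted p = 0.00358), so it was lower in KO than in WT and higher with SETD2 C than in KO. NUPR1, a stress-induced cofactor, had 11.0 and 9.76 TPM in WT and 4.13 and 3.38 in KO (-1.48, limma adjusted p = 0.00648).

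CHAC1, DDIT3, SESN2 and ASNS varied most among the 10 over the 10 libraries. For each, the genes with the nearest pattern were found by the Euclidean distance between log2 values centred within each table, over 14530 genes. PSAT1, the aminotransferase of serine synthesis, was at a distance of 0.248 from ASNS, and ZGLP1 was nearer at 0.237. The nearest genes were PLPP7 and AC132192.2 for DDIT3 (distances of 0.339 and 0.359), SLC16A13 and AL513165.2 for CHAC1 (0.785 and 0.843) and MANSC1 and ACP2 for SESN2 (0.166 and 0.281). PLPP7 had 0.91 and 0.88 TPM in WT and 0.48 and 0.43 in KO of the first table, so it passed the filter there only through WT. AL513165.2 had 0.38 and 0.24 TPM with SETD2 C. Values this low make both matches uncertain.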

How the data were processed

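RNA-seq of 10 libraries was used out of 24 samples. The H3K36me3 and H3 ChIP-seq samples were not analysed here. Per the labels and the study's methods, ribosomal RNA was depleted and polyA RNA enriched, reads were aligned with STAR 2.6.1c to hg38 with Ensembl gene models, and RSEM 1.3.0 gave TPM per gene. The authors deposited TPM without scaling between libraries. Because TPM is a share of a library's sum, some genes going up pulls the others down, and neither counts nor depth can be recovered. The study's own tests ran edgeR on counts, not used here.

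Gene types came from GENCODE 44, to which 391 of 58884 genes could not be matched (58472 had the identifier and 21 the symbol). A library's scaling factor was its median ratio to the geometric mean, using lncRNA and protein-coding genes that reached 1 TPM in all libraries of the table. Genes of these types had to reach 0.5 TPM in 2 or more libraries, which left 14741 in the first table and 15929 in the second. The test was limma 3.58.1 (R 4.3.3, eBayes with trend) on log2(scaled TPM + 0.5), run within a table, and all 6 libraries of the second entered 1 fit. Benjamini-Hochberg adjustment ran over all genes tested, and a call is an adjusted p of at most 0.05. The pseudocount understates changes of low genes such as CHAC1. The procedure was also run on simulated data with independent noise per gene. That simulation did not model shifts in library composition and is no check against them. No pair of libraries shared more than 3.74% of its values.

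The 10 genes and all lists were chosen with earlier results of these data known. Other genes were named as the 3 largest called, non-overlapping changes per list and comparison, from which the text takes a part. The alternatives were other pseudocounts, filters, scalings and gene types, eBayes without trend, a fit restricted to the libraries compared, a replicate block and each library left out in turn.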

Additional observations from a re-analysis of the deposited data

How the results depend on the processing

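Against KO and against SETD2 FL, the calls of ATF4, DDIT3, CHAC1 and ASNS with SETD2 C held in 14 of 14 alternatives. In KO against WT the number of the 10 genes past the test, 2, became 0 without the filter and with eBayes without trend, 1 without scaling and with all gene types, 3 with TPM of at least 1 in every library and after rescaling without mitochondrially encoded genes and SETD2, and ranged from 0 to 3 with 1 library left out, and the number that also reached a 2-fold change ranged from 0 to 1. In SETD2 C against KO the 2 genes past a 2-fold change became 1 with a pseudocount of 1 and without scaling, and 1 to 2 with 1 library left out. In SETD2 FL against KO, uncalled log2 fold changes turned sign: ATF4 was 0.028 with quantile normalization and 0.043 after rescaling without mitochondrially encoded genes and SETD2. With 1 library left out, the log2 fold change ranged from -0.056 to 0.014 for ATF4, from -0.095 to 0.17 for HERPUD1, from -0.076 to 0.27 for DNAJB9 and from -0.013 to 0.21 for DDIT3. The cause was not tested.

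With a replicate block in KO against WT, 4 of the 10 genes were lower, XBP1 (limma adjusted p = 0.0498) and DDIT3 (0.0415) in addition. The WT and KO libraries share only the numbers 1 and 2: over 14741 genes the deviations of same-numbered libraries had a correlation of 0.147, and no label ties the numbers to a shared batch. No paired analysis was possible because the groups compared in the second table share fewer than 2 replicate numbers. Over the 10 genes, 370 of the alternative values kept direction and side of the threshold apart from those leaving out a library, 15 lost the call, 13 gained it and 2 turned sign. Among the values with a library left out, 6 turned sign, all in SETD2 FL against KO. With 2 libraries a group and no depth, small changes of low genes such as CHAC1 and DNAJB9 are the least certain.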

Other observations

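The list of heat shock genes, which answer to unfolded protein outside the ER, holds cytosolic chaperones and the mitochondrial HSPD1 and HSPE1. It had called members in every comparison, with and without transfection. In KO against WT, 4 of 11 tested were higher and 0 lower (0 to 4 higher over the alternatives), beside 1.32% of all genes higher: HSPA1A (log2 fold change of 0.78, limma adjusted p = 0.0196), HSPA1B (0.60, 0.0240), BAG3 (0.39, 0.0471) and DNAJB1 (0.38, 0.0495). Of 12 tested in the second table, 4 were higher and 0 lower with SETD2 FL than in KO (0 to 4 higher over the alternatives), beside 0.207% of all genes called, and 7 were higher and 1 lower with SETD2 C than in KO, beside 36.2% called and 21.1% higher. With SETD2 C against SETD2 FL, 2 of the 12 were higher and 3 lower, beside 38.2% of all genes called. HSPA6 is among the higher genes in each of these second-table counts but passed the filter on low values only through the transfected libraries. Its calls therefore carry no weight and no fold change is given. HSPA6, an inducible HSP70, had 0.17 and 0.20 TPM in KO, 2.31 and 2.36 in SETD2 FL libraries and 6.14 and 12.0 with SETD2 C. HSPA1B had 612 and 818 TPM in WT and 1179 and 1177 in KO of the first table, 352 and 365 in KO of the second, 515 and 545 in SETD2 FL libraries and 637 and 570 with SETD2 C, and it shares reads with its near-identical copy HSPA1A, so the split between them is uncertain. Of 6 interferon and RNA-sensing genes tested, 2 were higher and 0 lower with SETD2 C than in KO. This share was near the 36.2% called over all genes. The 2 were IRF7 (log2 fold change of 0.89) and the eIF2alpha kinase EIF2AK2 (0.31), whose call was kept in 9 of 14 alternatives. Quantile normalization left 1 higher and 1 lower.

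For SETD2 C against KO, 11 of the 13 protein genes of the mitochondrial genome were called, all lower, and the median log2 fold change of the 13 was -1.37. With mitochondrially encoded genes and SETD2 left out of the total, the 8 stress genes called in that comparison had the same directions, XBP1 lost its call (limma adjusted p = 0.0552) and HERPUD1 gained one (0.0170). Of the 6 HEK293 markers, 3 were higher and 0 lower with SETD2 C than in KO, beside 36.2% of all genes called and 21.1% higher. Among the 3 were the neurofilament genes NEFL (63.6 and 61.3 TPM in KO, 156 and 168 with SETD2 C) and NEFM (125 and 120, then 289 and 341). Of the markers of other cell types, CD68 and COL1A1 were the 2 tested and both were higher with SETD2 C than in KO, by 1.31 and 0.55 on the log2 scale. CD68 was also higher in KO than in WT, by 1.59.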
